A study of Mus musculus with 79 samples.

Results

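Collagens, laminins and integrins are the fibres, sheets and receptors of the extracellular matrix. Their mRNAs were described in lung, kidney and liver of mice that breathed 6% oxygen (O2) or 21% O2 for 4 h. The members were every gene symbol of the deposited tables that has the form of a collagen chain (Col, a number, a, a number), a laminin chain (Lama, Lamb or Lamc with a digit) or an integrin chain (Itga or Itgb), without names that contain bp. The rule uses names only, and it found 73 of 15198 symbols: 36 collagen chains, 11 laminin chains and 26 integrin chains, among them Itgbl1, an integrin beta-like gene. Lung listed 70 of them and kidney 62, the liver table of the light-dark part 49, and the liver tables of the constant-dark part 45 in WT and 46 in KO. All 5 tables listed 43, and 10 were listed in lung only.

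C57BL/6 mice aged 3 months breathed 6% O2 or 21% O2, both in nitrogen, at ZT4-8 (in the light) or ZT16-20 (in the dark) of a 12 h light and 12 h dark cycle, and lung, kidney and liver of each of 16 mice were sequenced. The groups used here are lung, kidney and liver of WT mice at 6% O2 and at 21% O2 in each of these windows, 4 mice a group. In constant darkness, entered 2 days earlier, liver alone was sequenced, from Per1,2 double knock-out (KO) and WT mice at CT4-8 and CT16-20, again 4 mice a group except KO at CT16-20 and 6% O2, which had 3. All 79 libraries were bulk tissue RNA amplified by in vitro transcription, so fewer cells of a type and less RNA per cell cannot be told apart in any result below.

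A collagen molecule is a helix wound from several chains. Fibrillar collagens such as type I and type III form the fibres of interstitial tissue, while type IV collagen forms the network of basement membranes, the sheets under epithelia and around vessels. Laminins, each built of an alpha, a beta and a gamma chain, form a second network in the same sheets. Integrins are receptors made of an alpha and a beta chain that tie cells to both, and the beta2 and beta7 families and their alpha partners are carried by leukocytes. In the kidney glomerulus the filter is a basement membrane of type IV chains alpha3, alpha4 and alpha5, and in the lung the thin sheet between alveolus and capillary holds both kinds of network.

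Type IV chain genes lie in head-to-head pairs, and the pairs carried the kidney result below, so the DNA ahead of 3 of them is shown. Each sequence is the 250 bases upstream of the gene's start in RefSeq (GRCm38.p6), 5′ to 3′ on the gene's own strand: chr8:11312827-11313076 on the minus strand for Col4a1, chr8:11312555-11312804 on the plus strand for Col4a2 and chr1:82586850-82587099 on the minus strand for Col4a4. Capitals mark the hypoxia-response core, searched as ACGTG or GCGTG on both strands.
Col4a1: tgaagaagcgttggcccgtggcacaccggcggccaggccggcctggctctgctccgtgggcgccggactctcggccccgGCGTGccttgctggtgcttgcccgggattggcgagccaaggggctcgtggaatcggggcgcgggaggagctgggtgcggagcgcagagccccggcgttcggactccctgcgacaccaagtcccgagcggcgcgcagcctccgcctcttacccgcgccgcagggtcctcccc
Col4a2: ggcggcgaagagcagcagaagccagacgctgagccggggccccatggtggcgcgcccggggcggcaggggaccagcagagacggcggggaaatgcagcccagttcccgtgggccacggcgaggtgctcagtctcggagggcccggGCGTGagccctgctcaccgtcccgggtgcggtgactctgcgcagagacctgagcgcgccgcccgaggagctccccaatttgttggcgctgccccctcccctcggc
Col4a4: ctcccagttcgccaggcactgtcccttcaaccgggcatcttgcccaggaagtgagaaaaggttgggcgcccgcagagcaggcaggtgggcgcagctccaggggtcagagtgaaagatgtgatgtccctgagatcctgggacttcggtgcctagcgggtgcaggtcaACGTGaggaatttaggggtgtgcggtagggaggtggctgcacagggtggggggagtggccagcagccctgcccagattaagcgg
Each window held 1 match, which began 171 bases upstream of the start in Col4a1, 105 in Col4a2 and 84 in Col4a4. Each match also lies within the partner gene on the opposite strand: Col4a2 for Col4a1, Col4a1 for Col4a2 and Col4a3 for Col4a4. Such a match is common: 12679 of 32851 promoter windows of that length held one, 38.6%, against 16 of 57 windows of members (28.1%; 52 of the 73 members had an entry). The E-box CACGTG, which contains ACGTG, was in none of the 3 windows and in 6.02% of all. Col4a1 and Col4a2 overlap by 22 bases at their starts on opposite strands, and Col4a4 starts 72 bases from Col4a3, which has no entry in the table used. A match is a description of letters, not of binding.

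The values are raw counts per gene, given here as CPM, counts scaled to a common library size by edgeR's trimmed mean of M-values. Libraries held 1649023 to 4349076 counts in lung, 2148455 to 3913899 in kidney and 1443279 to 6744476 over all 79. Fold changes are log2 of 6% O2 over 21% O2 unless another pair is named, with the standard error (SE) of the fit. A gene was called at a Benjamini-Hochberg adjusted p under 0.05 over all genes tested, by edgeR's quasi-likelihood test. Counts of members at an unadjusted p under 0.05, or called by the alternative test DESeq2, are given without the matching share of all genes. They are descriptions only. Tissue markers fitted the labels: alveolar epithelial genes summed to 38498 to 58142 CPM in every lung library, proximal tubule genes to 6556 to 8725 CPM in kidney and hepatocyte genes to at least 60471 CPM in liver. Heart muscle genes were also counted in every lung library, at sums of 517 to 1715 CPM. In lung, 3 libraries at 21% O2 (ZT4-8 B and C, ZT16-20 D) held 1845 to 2007 CPM of skeletal muscle genes, against 14.5 to 87.1 CPM in the other 13. At ZT16-20, brown fat genes (Ucp1 and Cidea) summed to 356 and 767 CPM in lung libraries A and B at 6% O2 and to 1179 CPM in A at 21% O2, against 7.40 to 323 CPM in the other 13. White fat genes were also highest in these 3, at 150 and 192 CPM in A and B at 6% O2 and 276 CPM in A at 21% O2, against 15.0 to 96.8 CPM. In kidney, ZT4-8 libraries B and D at 21% O2 were low together in several members. Some of the results that rest on these 8 libraries are also given without them, and others are not. In the KO livers, Per1 had 14.9 to 31.3 CPM at 6% O2 and 20.2 to 36.3 CPM at 21% O2, against 44.9 to 84.7 and 16.5 to 55.2 CPM in WT. Per2 had 19.0 to 32.1 and 4.62 to 11.4 CPM in KO, against 2.92 to 29.1 and 5.36 to 17.4 CPM in WT. Per1 at 6% O2 was lower in KO than in WT without overlap, while Per1 at 21% O2 and Per2 at both levels overlapped between the genotypes, and the labels do not say which exons are deleted.

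After 4 h at 6% O2, few members changed, and most that did were higher. In kidney at ZT4-8, 6 of 49 tested members were called higher (12.24%) and 1 lower (2.04%), where 2.79% and 2.49% of all genes tested were called. All 7 were collagens, and 4 of them were type IV chains. In kidney at ZT16-20, 4 were higher (8.16%) and 1 lower (2.04%), against 3.44% and 3.47% of all genes, and the 5 were 2 collagens, 2 laminins and 1 integrin. In lung at ZT4-8, 4 of 61 tested members were higher (6.56%) and 0 lower, below the 11.2% and 11.4% of all genes tested. In lung at ZT16-20, 8 were higher (13.1%) and 1 lower (1.64%), against 10.2% and 10.9%, and 6 of the 9 were integrins. The median log2 fold change of tested members was 0.17 in kidney and 0.14 in lung at ZT4-8, and -0.06 in kidney and 0.08 in lung at ZT16-20, where the median of all genes lay between -0.01 and 0.00.

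**Figure D1:**
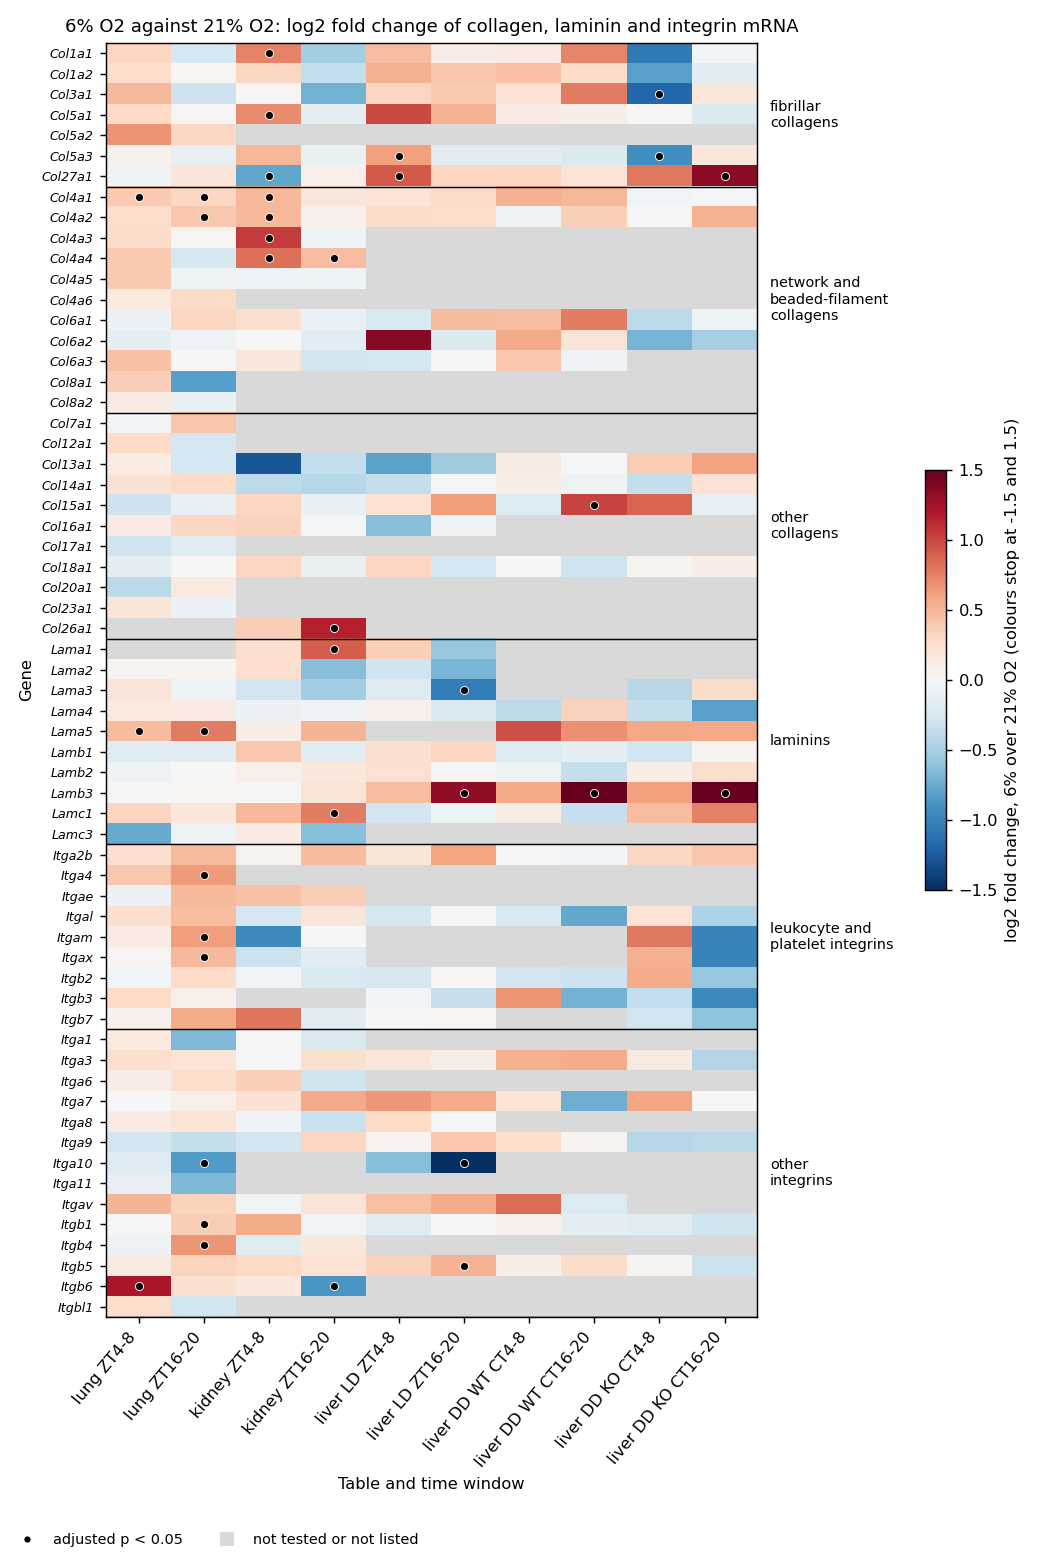
Log2 fold change of 6% O2 over 21% O2 for members tested in at least 1 table (rows, ordered by class) in each table and time window (columns); red is higher at 6% O2, blue is lower, grey was not tested or not listed, and dots mark an adjusted p under 0.05. Dots are sparse, 7 in kidney at ZT4-8 and 9 in lung at ZT16-20, and the type IV rows carry 4 of the 7 in kidney.

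Type IV collagen was higher at 6% O2 in kidney at ZT4-8. Of its 5 chains tested there, 4 were called higher, with a median log2 fold change of 0.49 over the 5, and the summed level of the chains was 957 ± 51.3 CPM at 6% O2, against 611 ± 60.5 CPM at 21% O2 (SD, n = 4 each). Col4a4, a chain of the mature glomerular basement membrane (chr1:82448423-82586849 on mm10, minus strand), had 197, 153, 181 and 189 CPM at 6% O2, against 115, 105, 87.4 and 101 CPM at 21% O2. Every library at 6% O2 was above every library at 21% O2, with a log2 fold change 0.82 ± 0.12, SE, adjusted p = 0.000164. Col4a3, its partner chain (chr1:82586921-82722059, plus strand), had 215, 249, 219.8 and 239 CPM at 6% O2, against 149, 67.5, 167 and 61.8 CPM at 21% O2. The groups did not overlap, and libraries B and D were the low ones at 21% O2 (log2 fold change 1.05 ± 0.24, SE, adjusted p = 0.0146).

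Col4a1 and Col4a2, the chains found in nearly all basement membranes (chr8:11198423-11312826 and chr8:11312805-11449287), were both higher there. Col4a1 had 203, 235, 218 and 239.6 CPM at 6% O2, against 142, 145, 188 and 164 CPM at 21% O2. Col4a2 had 302, 248, 309 and 340.5 CPM at 6% O2, against 200.4, 211, 221 and 226 CPM at 21% O2. For both, the groups were apart, with log2 fold changes of 0.49 ± 0.11 (adjusted p = 0.0112) and 0.48 ± 0.12 (adjusted p = 0.0212). The 2 genes overlap at their starts on opposite strands, and the counting is not stated to use strand, so reads from that stretch cannot be told apart. Col4a5, the third chain of the glomerular network, was not called, at -0.05 with an adjusted p of 0.912, and Col4a6 was listed but too low to test. Without kidney libraries B and D at 21% O2, Col4a4 kept a log2 fold change of 0.84 (adjusted p = 0.0025) and Col4a3 one of 0.54 (adjusted p = 0.039), while Col4a1 had 0.44 (adjusted p = 0.102) and Col4a2 0.51 (adjusted p = 0.084) and were no longer called. Leaving out 1 library at a time, Col4a3 and Col4a4 kept their calls in all 8 fits, Col4a1 lost its call without B at 21% O2 (adjusted p = 0.052), and Col4a2 without A or B at 21% O2 or A, C or D at 6% O2 (adjusted p up to 0.0817). Fitted with the ZT16-20 libraries left out, 2 of the 49 members were called at ZT4-8 in place of 7.

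At ZT16-20, 1 of the 5 chains was called in kidney. Col4a4 had 150.0, 172, 151 and 163 CPM at 6% O2, against 111, 97.4, 133 and 119 CPM at 21% O2, without overlap (log2 fold change 0.47 ± 0.12, SE, adjusted p = 0.0202), and the call was lost without A or B at 21% O2 or without B or D at 6% O2, with an adjusted p of up to 0.0768. Col4a3 had 215, 206, 177 and 171 CPM at 6% O2, against 219.8, 221, 174 and 191 CPM at 21% O2. These levels overlapped, and Col4a1 and Col4a2 were not called either, at log2 fold changes of -0.06, 0.17 and 0.06 with adjusted p of 0.918, 0.42 and 0.834. The summed type IV level was 781 ± 41.1 CPM at 6% O2, against 719 ± 18.1 CPM at 21% O2. Set against ZT4-8, the oxygen response of Col4a3 at ZT16-20 differed by a log2 value of -1.12 ± 0.34, and with an adjusted p of 0.236 that difference between windows was not called. All 3 podocyte genes summed to 183 to 238 CPM at 6% O2, against 167 to 227 CPM at 21% O2 at ZT4-8, and all 7 endothelial genes to 166 to 188, against 167 to 204 CPM, and none of the 10 was called by edgeR.

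In lung the widespread chains were higher at 6% O2. Col4a1 had 627, 554, 608 and 603 CPM at 6% O2, against 452, 395, 518 and 464 CPM at 21% O2 at ZT4-8, and 555, 529.9, 482 and 603 CPM at 6% O2, against 413, 444, 468 and 424 CPM at 21% O2 at ZT16-20. In both windows the groups did not overlap, with log2 fold changes of 0.39 ± 0.10 (adjusted p = 0.00777) and 0.31 ± 0.10 (adjusted p = 0.0319). The ZT16-20 call was lost without library A at 21% O2 or without A or D at 6% O2 (adjusted p up to 0.108). Col4a2 had 948, 1057, 779 and 977 CPM at 6% O2, against 646, 741, 734 and 713 CPM at 21% O2 at ZT16-20, again apart (log2 fold change 0.41 ± 0.11, SE, adjusted p = 0.00953). At ZT4-8 it had 887, 875, 1036 and 952 CPM at 6% O2, against 805, 655, 859.8 and 809 CPM at 21% O2. Those groups did not overlap either, but at 0.26 with an adjusted p of 0.0917 the difference was not called. Without the 3 ZT16-20 libraries richest in brown fat RNA, neither chain was called at ZT16-20 (adjusted p = 0.216 for Col4a1 and 0.262 for Col4a2).

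The alpha3 and alpha4 chains, which are also part of the alveolar basement membrane, were not called in lung. At ZT4-8 Col4a4 stood at 0.40 with an adjusted p of 0.0603 and Col4a3 at 0.28 with an adjusted p of 0.0924, and at ZT16-20 they stood at -0.24 and 0.03. Of the 6 type IV chains tested in lung, 1 was called at ZT4-8, where all 6 fold changes were above 0 and 5 had an unadjusted p under 0.05 (median log2 fold change 0.33), and 2 at ZT16-20 (median 0.16). Of all genes tested in lung at ZT4-8, 11.2% were called higher and 11.4% lower, and the share at the unadjusted threshold is not given. The summed type IV level in lung was 1805 ± 93.8 CPM at 6% O2, against 1454 ± 135 CPM at 21% O2 at ZT4-8, and 1717 ± 163, against 1390.0 ± 97.5 CPM, at ZT16-20. The sum of endothelial markers was also higher at 6% O2. All 7 were listed and summed to 3925 to 4516 CPM at 6% O2, against 2312 to 2622 CPM at 21% O2 at ZT4-8, and to 2644 to 3651, against 1927 to 2386 CPM, at ZT16-20. Most of that came from 1 gene, the tight junction gene Cldn5, at 2099.5 ± 144 CPM at 6% O2, against 700.3 ± 117 CPM at 21% O2 (SD, n = 4 each) at ZT4-8. At ZT4-8 2 of the 7, Cldn5 and Emcn, were called, and at ZT16-20 Cldn5 was. The part of endothelium in the type IV result was not tested.

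**Figure D2:**
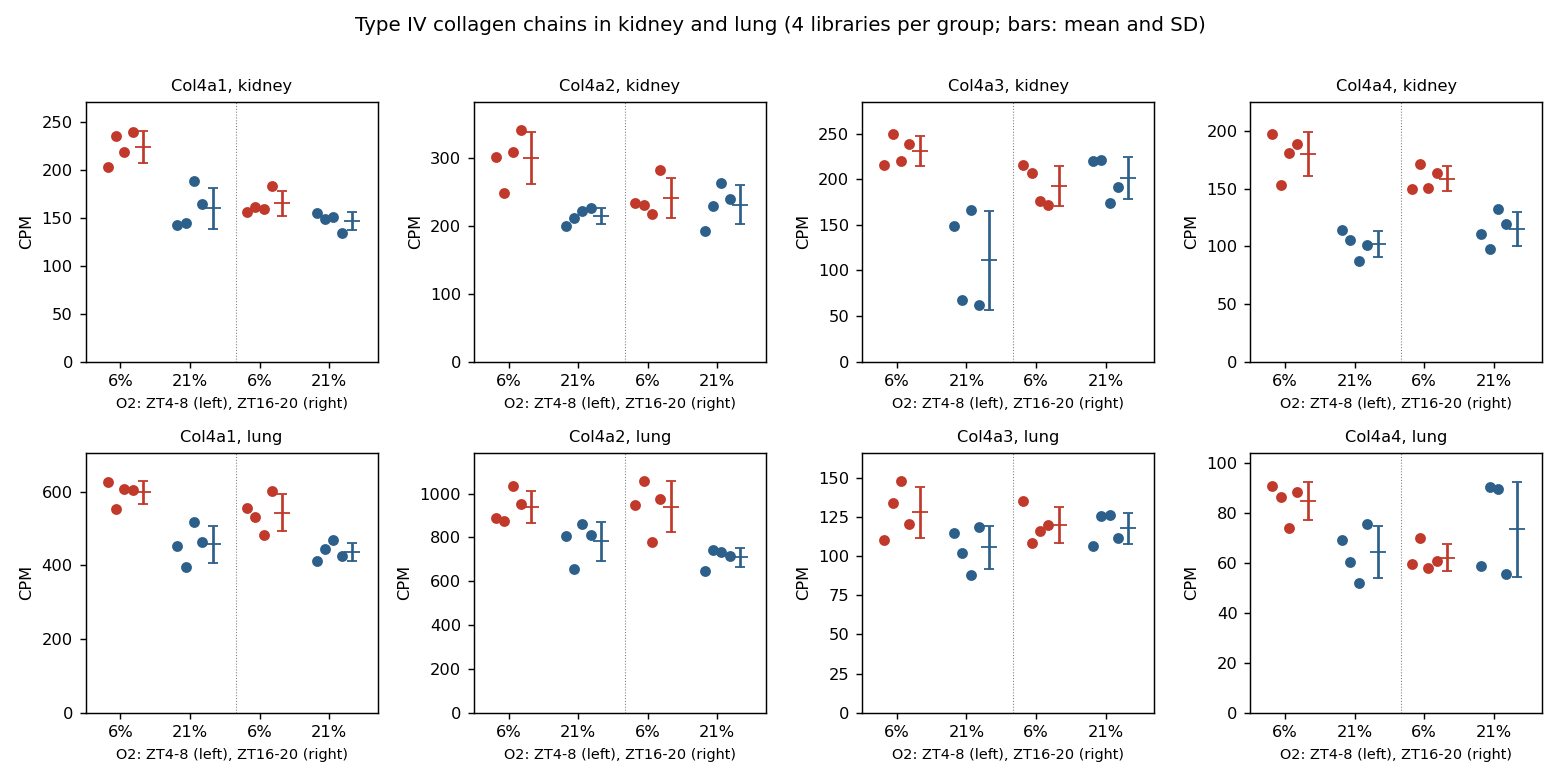
CPM of type IV collagen chains in kidney and lung, one point per library with the group's mean and SD (4 libraries per group), 6% O2 left of 21% O2 in each time window. In kidney at ZT4-8 the 4 called chains have all libraries at 6% O2 above those at 21% O2; Col4a4 stays apart at ZT16-20, with means of 159 CPM at 6% O2 and 115 CPM at 21% O2.

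Among laminins, Lama5 was higher at 6% O2 in lung in both windows. It encodes the alpha5 chain, the main alpha chain of adult epithelial and vascular basement membranes (chr2:180176373-180225859, minus strand). At ZT16-20 it had 146, 175, 155 and 179 CPM at 6% O2, against 87.6, 93.3, 113 and 87.7 CPM at 21% O2. At ZT4-8 it had 176, 139, 161 and 148 CPM at 6% O2, against 99.8, 121, 126 and 101 CPM at 21% O2. No library at 21% O2 reached a library at 6% O2 in either window (log2 fold change 0.78 ± 0.12, SE, adjusted p = 3.89e-05 at ZT16-20, and 0.48 ± 0.12, adjusted p = 0.00443, at ZT4-8), and both calls held with any 1 library left out. Smooth muscle and pericyte markers (7 of 7 listed) also differed, at sums of 830.1 to 1138 CPM at 6% O2, against 464 to 661 CPM at 21% O2 at ZT16-20 (4 of 6 tested called higher), and 826 to 956, against 669.8 to 786 CPM, at ZT4-8 (2 of 6), and their part in the Lama5 values was not tested. In kidney Lama5 was not called, at 0.51 with an adjusted p of 0.147 at ZT16-20 and 0.10 at ZT4-8.

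Of 10 laminins tested in lung, 2 were called at ZT4-8 and 1 at ZT16-20, all of them higher. Of all genes tested, 11.2% higher and 11.4% lower were called at ZT4-8, and 10.2% and 10.9% at ZT16-20. Lama3 and Lamb3, chains of the epithelial anchoring laminin, did not pass the test: Lama3 stood at 0.19 and -0.07 and Lamb3 at -0.03 and 0.03 at ZT4-8 and ZT16-20. The widely expressed Lamb1 and Lamc1 chains were not called, at -0.18 and 0.32 at ZT4-8 and -0.15 and 0.16 at ZT16-20.

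In kidney the called laminins were Lama1 and Lamc1, both at ZT16-20. Lama1, an alpha chain that in adult kidney is found in tubular basement membranes (chr17:67697259-67822647), had 17.6, 12.6, 16.3 and 17.1 CPM at 6% O2, against 6.36, 8.19, 10.7 and 8.20 CPM at 21% O2. Lamc1, the gamma chain shared by most laminins, had 17.99, 13.9, 17.1 and 19.7 CPM at 6% O2, against 7.36, 11.1, 9.45 and 11.9 CPM at 21% O2. In both, the groups were apart, with log2 fold changes of 0.91 ± 0.20 (adjusted p = 0.00705) and 0.77 ± 0.20 (adjusted p = 0.0237). The Lama1 call held with any 1 library left out, while that of Lamc1 was lost without A or C at 21% O2 and without C or D at 6% O2 (adjusted p up to 0.0778). At ZT4-8 none of the 11 laminins tested in kidney was called by edgeR, 1 had an unadjusted p under 0.05, and Lama1 and Lamc1 stood at 0.25 and 0.48 (adjusted p = 0.52 and 0.183). The difference in response between windows was 0.66 ± 0.28 for Lama1 (adjusted p = 0.436). Lama3, Lama2 and Lama5 were the uncalled laminins of smallest p at ZT16-20, at -0.52 with an adjusted p of 0.0551, -0.63 with an adjusted p of 0.0999 and 0.51 with an adjusted p of 0.147.

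Among integrins of epithelia, Itgb6 was called in both tissues, higher in lung at ZT4-8 and lower in kidney at ZT16-20. Itgb6, the beta6 chain that pairs with alpha v on epithelia and activates latent TGF-beta (chr2:60598292-60722643, minus strand), had 14.9, 19.2, 21.4 and 13.2 CPM at 6% O2, against 7.50, 3.87, 6.44 and 11.2 CPM at 21% O2 in lung at ZT4-8. The groups were apart (log2 fold change 1.22 ± 0.27, SE, adjusted p = 0.00214). In lung at ZT16-20 it had 10.6, 6.35, 12.5 and 15.6 CPM at 6% O2, against 8.04, 9.45, 12.9 and 7.83 CPM at 21% O2, which overlapped (0.24, adjusted p = 0.606). In kidney at ZT16-20 it had 15.3, 21.5, 22.1 and 21.9 CPM at 6% O2, against 44.5, 31.0, 36.5 and 36.0 CPM at 21% O2. Every library at 6% O2 was below every library at 21% O2 (log2 fold change -0.87 ± 0.18, SE, adjusted p = 0.0043), and the call held with any 1 library left out. At ZT4-8 in kidney it had 34.4, 30.9, 33.8 and 26.7 CPM at 6% O2, against 31.3, 35.0, 19.3 and 27.4 CPM at 21% O2, with overlap (0.16, adjusted p = 0.69). The difference between the kidney windows was -1.03 ± 0.26 with an adjusted p of 0.104, and that between the lung windows -0.98 ± 0.40 with 0.554, so neither was called. Its response in lung was not set against that in kidney in a test. Alveolar and airway epithelial markers (6 and 4 genes) held no call by edgeR in lung in either window. The list of bile duct markers, which are keratins and other epithelial genes that lung also expresses (4 of 4 listed), summed to 523 to 847 CPM at 6% O2, against 497 to 666 CPM at 21% O2 at ZT4-8, and to 673 to 845, against 454 to 559 CPM, at ZT16-20, without overlap. Of the 3 of them tested, Krt19 was called higher in each window (log2 fold change 0.57 ± 0.12, SE, adjusted p = 0.000734 at ZT4-8, and 0.99 ± 0.12, adjusted p = 9.21e-07, at ZT16-20). The part of these genes in the values of Itgb6, Itgb4 and Lama5 was not tested.

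Itgb4, the beta4 chain of hemidesmosomes, the rivets that hold epithelia to laminin, was called in lung at ZT16-20, where it had 25.5, 36.2, 39.4 and 36.7 CPM at 6% O2, against 21.7, 16.5, 21.6 and 26.0 CPM at 21% O2. Library A at 6% O2 lay just below the highest library at 21% O2, and the others at 6% O2 lay above the range (log2 fold change 0.66 ± 0.17, SE, adjusted p = 0.00746). At ZT4-8 it had 34.3, 25.9, 25.9 and 30.2 CPM at 6% O2, against 27.2, 39.0, 25.3 and 31.2 CPM at 21% O2, with overlap (-0.08, adjusted p = 0.786). Itgb1, the beta chain of most matrix receptors, had 417, 388, 355 and 419 CPM at 6% O2, against 340.1, 286, 296 and 296 CPM at 21% O2 in lung at ZT16-20. Its groups were apart (log2 fold change 0.37 ± 0.11, SE, adjusted p = 0.0153), whereas at ZT4-8 the log2 fold change was 0.00 ± 0.11. Calls of both genes at ZT16-20 held with any 1 library left out, and that of Itgb1 was lost without the 3 libraries richest in brown fat RNA (adjusted p = 0.0757). In kidney Itgb1 was not called, at 0.55 with an adjusted p of 0.134 at ZT4-8, where libraries B and D at 21% O2 had 55.4 and 53.7 CPM, against 96.6 and 134 CPM in A and C.

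**Figure D3:**
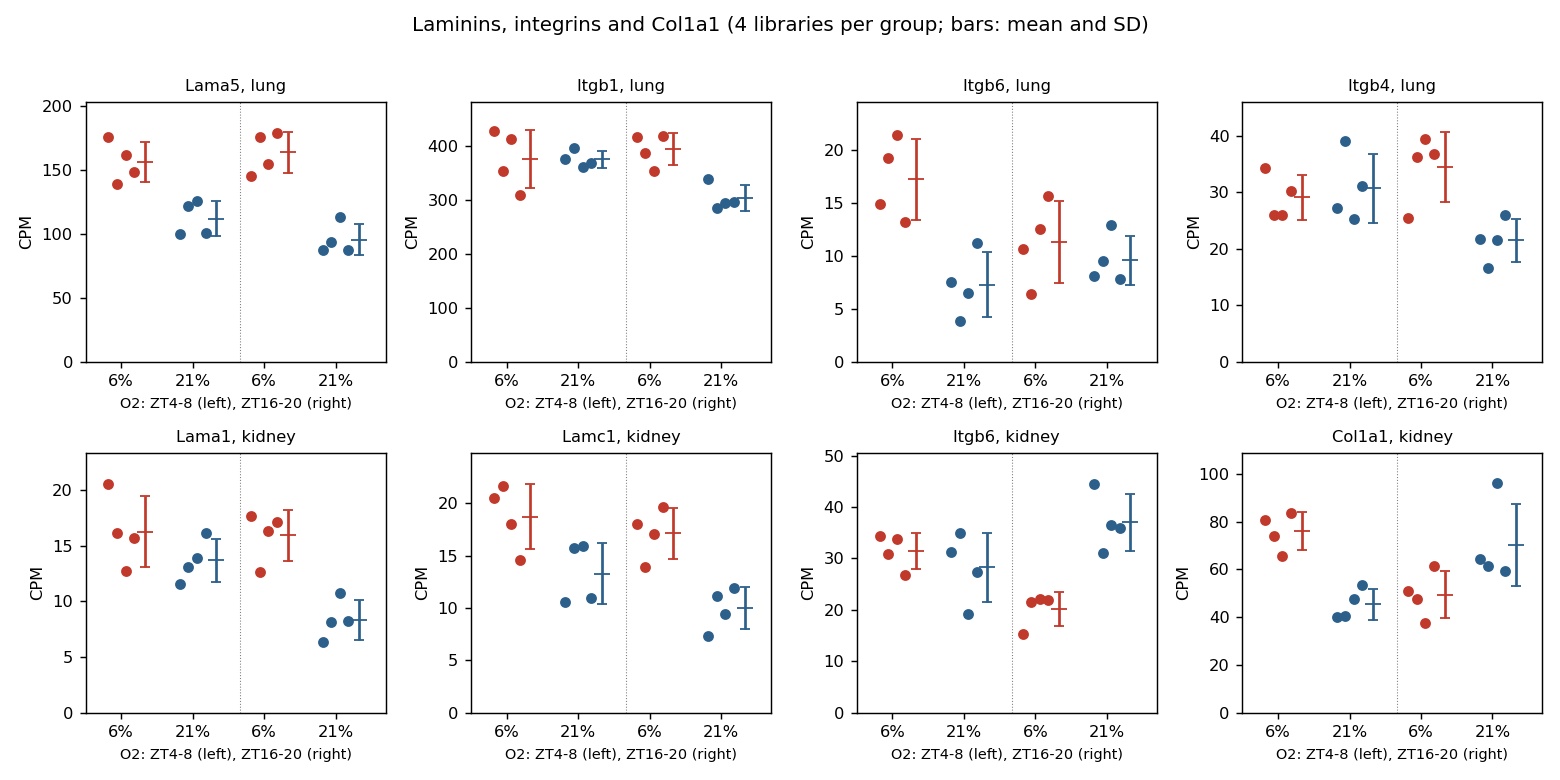
CPM of Lama5 and of integrin beta chains in lung (upper row) and of laminin chains, Itgb6 and Col1a1 in kidney (lower row), one point per library with the group's mean and SD (4 libraries per group), 6% O2 left of 21% O2 in each window. Lama5 in lung is apart in both windows, and Itgb6 has higher libraries at 6% O2 in lung at ZT4-8 and lower ones, 15.3 to 22.1 CPM, in kidney at ZT16-20.

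Of the alpha chains, Itga10, a collagen receptor chain best known from cartilage, was the 1 member called lower in lung at ZT16-20. It had 7.28, 2.22, 4.58 and 6.31 CPM at 6% O2, against 9.38, 6.50, 9.74 and 10.6 CPM at 21% O2, which overlapped (log2 fold change -0.85 ± 0.29, SE, adjusted p = 0.0397). It rested on 69 counts over the 4 libraries at 6% O2 and 117 at 21% O2, and the call was lost without A, C or D at 21% O2 or B or C at 6% O2 (adjusted p up to 0.142). Itga1, a collagen receptor chain of stroma and smooth muscle, was lower without overlap in lung at ZT16-20 but not called (-0.66, adjusted p = 0.0876). Itga6, a laminin receptor chain, stood at 0.10 and 0.27 in lung. Itga5, the alpha chain of the fibronectin receptor, was listed in lung alone with 14 and 18 counts over the libraries at 6% O2 and 20 and 6 at 21% O2 at ZT4-8 and ZT16-20, too few to test.

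At ZT16-20 in lung, 3 integrins of leukocytes were higher at 6% O2. Of the 9 integrins of leukocytes and platelets tested, 3 were called higher and 0 lower, all 9 fold changes were above 0, and their median was 0.48, where 10.2% higher and 10.9% lower of all genes were called. Itgam (CD11b), of neutrophils and monocytes, had 34.9, 36.2, 27.2 and 28.0 CPM at 6% O2, against 30.5, 17.7, 13.2 and 19.4 CPM at 21% O2. Itga4, a homing receptor chain of lymphocytes and monocytes, had 20.9, 24.4, 21.4 and 19.2 CPM at 6% O2, against 19.8, 10.6, 10.0 and 13.8 CPM at 21% O2. Itgax (CD11c), of dendritic cells and alveolar macrophages, had 55.2, 47.6, 86.5 and 63.3 CPM at 6% O2, against 47.4, 44.9, 52.6 and 35.7 CPM at 21% O2. In all 3 the groups overlapped, with log2 fold changes of 0.63 ± 0.19, 0.64 ± 0.20 and 0.48 ± 0.16 and adjusted p of 0.0215, 0.022 and 0.0309. Leaving out 1 library ended each of the calls: C at 21% O2 or A or B at 6% O2 for Itgam, B or C at 21% O2 or B at 6% O2 for Itga4, and B or D at 21% O2 or C or D at 6% O2 for Itgax, with adjusted p of up to 0.0841, 0.0829 and 0.179.

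Itgb2, the beta chain of Itgam and Itgax, was not called, at 0.28 with an adjusted p of 0.127, nor was Itgb7, the second beta partner of Itga4, at 0.56 with an adjusted p of 0.0543. At ZT4-8 none of the 9 was called by edgeR and 1 had an unadjusted p under 0.05; Itgam stood at 0.12, Itga4 at 0.41 and Itgax at 0.02. The differences in response between windows were not called (0.46 for Itgax, adjusted p = 0.654, and 0.50 for Itgam, adjusted p = 0.681). Neutrophil markers moved in the same window. Of 10 on the list 9 were listed (Ly6g was not), and they summed to 274 to 492 CPM at 6% O2, against 72.9 to 160.0 CPM at 21% O2 at ZT16-20, with 6 of 9 called higher, S100a8 and S100a9 among them. At ZT4-8 the sums were 415 to 703 CPM at 6% O2, against 359 to 592 CPM at 21% O2, with 2 of 9 called. Monocyte and macrophage markers (6 of 9 listed) summed to 207 to 310.3 CPM at 6% O2, against 180.4 to 321 CPM at 21% O2 at ZT16-20, and none was called. T and NK cell markers (6 of 7 listed) summed to 70.7 to 88.2 CPM, against 47.6 to 68.5 CPM, with 2 of 5 tested called higher. Platelet markers (6 of 6 listed) summed to 387 to 525 CPM at 6% O2, against 164 to 630 CPM at 21% O2, with Gp1ba alone called, and B cell markers (4 of 4 listed) to 58.9 to 133, against 29.0 to 101 CPM, with none of 3 tested called by edgeR. Library C at 21% O2 was the lowest of all 8 for neutrophil, T and NK cell, B cell and platelet markers, at 72.9, 47.6, 29.0 and 164 CPM. For monocyte and macrophage markers the same library was the highest of all 8, at 321 CPM. The calls of Itgam and Itga4 were lost without library C, as they were without some other libraries. The part of these cells in the integrin result was not tested.

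**Figure D4:**
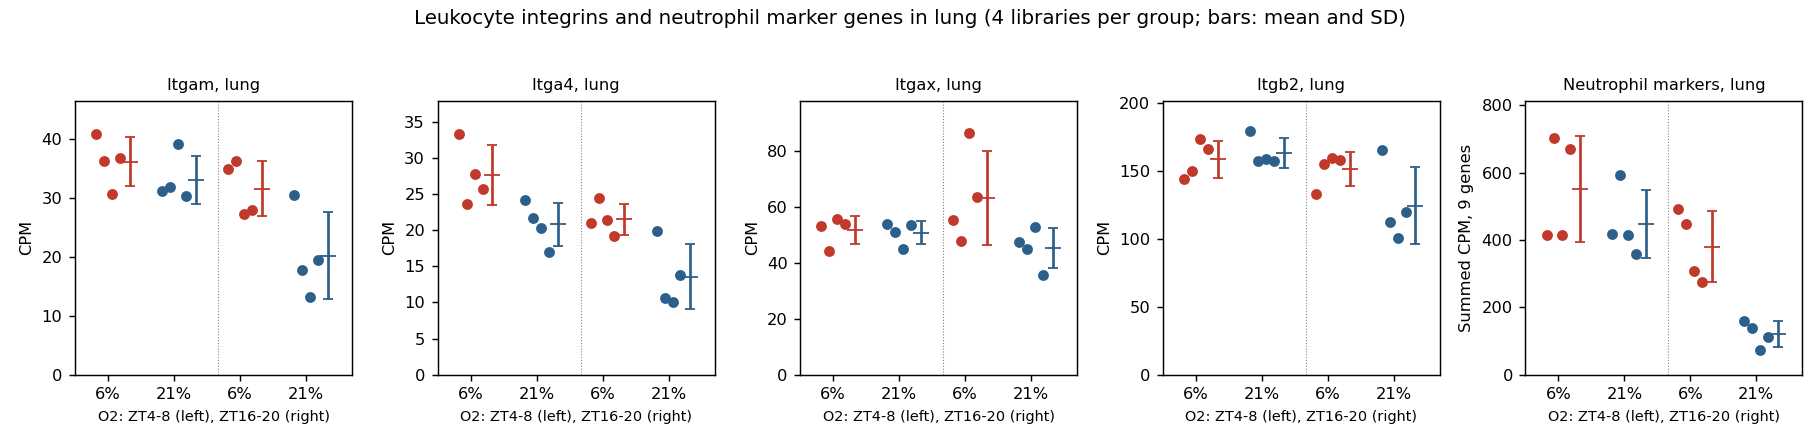
CPM of leukocyte integrins in lung and the summed CPM of neutrophil marker genes, one point per library with the group's mean and SD (4 libraries per group), 6% O2 left of 21% O2 in each window. At ZT16-20 the neutrophil sum is 274 to 492 CPM at 6% O2, against 72.9 to 160.0 CPM at 21% O2, and library A is the highest of the 4 at 21% O2 for both Itgam and Itga4.

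Without the 3 lung libraries that carried skeletal muscle RNA, 3 members were called at ZT4-8 in place of 4, and 8 at ZT16-20 in place of 9. Itgb6 at ZT4-8 then had a log2 fold change of 0.87 (adjusted p = 0.0543), and at ZT16-20 Itgax (adjusted p = 0.0971) and Itga10 (adjusted p = 0.109) were not called. Lama5 kept 0.75 at ZT16-20 (adjusted p = 0.000142). Fitted on the 2 groups of a window alone, lung gave 7 calls at ZT4-8 and 4 at ZT16-20. Without the 3 ZT16-20 lung libraries with most brown fat RNA, which leaves 2 libraries at 6% O2 and 3 at 21% O2, 7 members were called at ZT16-20, and 5 of them were among the 9. Lama5 (0.76, adjusted p = 0.00243), Itgb4 (0.80, adjusted p = 0.0181) and the leukocyte chains Itgax, Itgam and Itga4 (0.74, 0.72 and 0.81, adjusted p = 0.01, 0.0248 and 0.0256) stayed past the threshold. The calls of Col4a1 and Col4a2 (0.28 and 0.26, adjusted p = 0.216 and 0.262), Itgb1 (0.40, adjusted p = 0.0757) and Itga10 (-0.75, adjusted p = 0.18) were lost.

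Among fibrillar collagens, Col1a1 responded differently in the kidney windows. Col1a1, the alpha1 chain of type I collagen, the main interstitial fibre (chr11:94936224-94953042), had 50.9, 47.6, 37.7 and 61.6 CPM at 6% O2, against 64.2, 61.4, 96.0 and 59.3 CPM at 21% O2 at ZT16-20. These overlapped, at -0.51 with an adjusted p of 0.0722. At ZT4-8 it had 80.9, 74.2, 65.8 and 83.8 CPM at 6% O2, against 40.2, 40.4, 47.7 and 53.7 CPM at 21% O2, without overlap (log2 fold change 0.74 ± 0.17, SE, adjusted p = 0.011). The response at ZT16-20 was lower than that at ZT4-8 by a log2 difference of -1.25 ± 0.24 with an adjusted p of 0.0178, the 1 such difference among the 49 members, where 0.23% higher and 0.138% lower of all genes were called. It held without libraries B and D at ZT4-8 and 21% O2 (-1.30, adjusted p = 0.0326), and was lost without library D at ZT4-8 and 6% O2 (adjusted p = 0.0512). The other chains of these fibres were not called: Col1a2 stood at -0.36 at ZT16-20 and 0.31 at ZT4-8, and Col3a1, of type III collagen, at -0.71 and 0.01. The sum of the 3 was 163 ± 36.4 CPM at 6% O2, against 226 ± 54.7 CPM at 21% O2 at ZT16-20, and 202 ± 29.9, against 153 ± 18.2 CPM, at ZT4-8.

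Fibroblast markers (6 of 7 listed, Lum not) summed to 70.9 to 99.5 CPM at 6% O2, against 157 to 209.9 CPM at 21% O2 at ZT16-20, and to 77.9 to 105, against 131 to 177 CPM, at ZT4-8. Tcf21, the 1 of them called, made most of that difference, at 42.7 ± 2.54 CPM at 6% O2, against 119 ± 17.8 CPM at 21% O2 (SD, n = 4 each) at ZT16-20. Tcf21 was also the highest gene of the list in kidney, so these sums are not a measure of fibroblasts alone. Both brown fat markers were listed and summed to 4.01 to 7.98 CPM at 6% O2, against 8.70 to 136 CPM at 21% O2 at ZT16-20, and to 18.04 to 125, against 44.9 to 187 CPM, at ZT4-8. Their part in the collagen values was not tested.

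Col5a1, a chain of the minor type V collagen that starts fibrils, had 12.6, 9.68, 11.3 and 11.1 CPM at 6% O2, against 4.76, 7.73, 5.96 and 8.66 CPM at 21% O2 in kidney at ZT4-8. The groups were apart (log2 fold change 0.71 ± 0.21, SE, adjusted p = 0.0494), but the call was lost whichever library was left out, D at 21% O2 excepted (adjusted p up to 0.14). Col27a1, a fibrillar collagen of cartilage and other tissues, was the 1 member called lower there, at 54.6, 103, 77.4 and 66.3 CPM at 6% O2, against 91.2, 135, 144 and 145 CPM at 21% O2. Library B at 6% O2 lay above library A at 21% O2, so the groups overlapped (log2 fold change -0.78 ± 0.17, SE, adjusted p = 0.00663), and the call held with any 1 library left out but not without both B and D at 21% O2 (-0.66, adjusted p = 0.0746). At ZT16-20 it stood at 0.07 with an adjusted p of 0.847. Col26a1, a little-studied collagen, had 4.07, 4.10, 3.63 and 4.37 CPM at 6% O2, against 1.67, 2.93, 1.53 and 1.06 CPM at 21% O2 at ZT16-20, without overlap (log2 fold change 1.17 ± 0.34, SE, adjusted p = 0.0407). It rested on 47 counts at 6% O2 and 25 at 21% O2, and the call was lost whichever library was left out, B at 21% O2 excepted (adjusted p up to 0.135).

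In lung none of the 7 fibrillar collagens tested was called in either window by edgeR, with 2 at an unadjusted p under 0.05 at ZT4-8 and 0 at ZT16-20. Col1a1, Col1a2 and Col3a1 had log2 fold changes of 0.32, 0.26 and 0.49 at ZT4-8 (adjusted p 0.158, 0.165 and 0.0869) and -0.26, 0.03 and -0.31 at ZT16-20. Their sum was 1508 ± 246 CPM at 6% O2, against 1193 ± 136 CPM at 21% O2 at ZT4-8, and 1594 ± 395, against 1782 ± 181 CPM, at ZT16-20. Col6a1, of the beaded filaments around cells, stood at -0.08 and 0.33. Fibroblast markers (6 of 7 listed) summed to 731 to 1061 CPM at 6% O2, against 936 to 1139.8 CPM at 21% O2 at ZT4-8, and to 972 to 1198, against 1237 to 1451 CPM, at ZT16-20, with Tcf21 alone called, lower.

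The time of day in air was tested with the libraries at 21% O2. In kidney 1 of 49 members was called, higher, where 0.533% higher and 0.561% lower of all genes were called. Itga6, a laminin receptor chain of epithelia, had 96.3, 84.0, 88.9 and 84.4 CPM at ZT16-20, against 39.5, 35.3, 63.8 and 49.9 CPM at ZT4-8. The windows did not overlap (log2 fold change 0.91 ± 0.18, SE, adjusted p = 0.0116, ZT16-20 over ZT4-8), but without library B of ZT4-8 the adjusted p was 0.0565, and without both B and D the log2 fold change was 0.76 with an adjusted p of 0.161, and no member was called. In lung 0 of 61 members were called by edgeR, where 0.346% higher and 0.634% lower of all genes were. At an unadjusted p under 0.05 there were 18 members, and DESeq2 called 4. Both counts are without the share of all genes, so they are descriptions only. Among the smallest adjusted p values there were those of Col1a1 (0.61, 0.07), Col3a1 (0.79, 0.0723) and Itgam (-0.70, 0.0808).

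Whether the oxygen response differed between windows was tested as an interaction. In lung 0 of 61 members were called by edgeR and 0 by DESeq2, 7 had an unadjusted p under 0.05, and 0.14% higher and 0.115% lower of all genes were called. Itgb4 (0.74 ± 0.24, adjusted p = 0.337) and Col4a4 (-0.63 ± 0.22, adjusted p = 0.372) came first, so calls in 1 lung window and not in the other are not shown to differ. Between lung and kidney, none of the 48 members in the fit over lung, kidney and liver differed in response by edgeR or by DESeq2, at ZT4-8 (5 at an unadjusted p under 0.05; 2.12% higher and 1.54% lower of all genes) or at ZT16-20 (6 at an unadjusted p under 0.05; 1.15% higher and 0.648% lower of all genes). Col27a1 came closest at ZT4-8, with a log2 difference of 0.78 ± 0.25 (adjusted p = 0.0789). That fit takes genes listed in all 3 tissues, so 5 members tested in both lung and kidney, Col4a3, Col4a4 and Itgb6 among them, were not in it.

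Liver lists fewer of these genes, and 37 were tested in the light-dark part. At ZT4-8, 2 were called higher (5.41%) and 0 lower, where 5.43% and 4.21% of all genes were, and at ZT16-20 2 higher and 2 lower (5.41% each), against 9.98% and 10.3%. Lamb3, the beta chain of the epithelial anchoring laminin, had 11.5, 10.6, 9.50 and 15.0 CPM at 6% O2, against 2.58, 3.94, 5.05 and 6.56 CPM at 21% O2 at ZT16-20. The groups were apart (log2 fold change 1.33 ± 0.29, SE, adjusted p = 0.00246). It was also called in constant darkness at CT16-20. In KO livers it had 8.10, 6.81 and 8.59 CPM at 6% O2, against 0.661, 3.48, 2.18 and 3.69 CPM at 21% O2 (log2 fold change 1.60 ± 0.43, SE, adjusted p = 0.0359). In WT livers it had 12.1, 12.2, 19.1 and 9.13 CPM at 6% O2, against 2.72, 4.32, 5.77 and 2.80 CPM at 21% O2 (log2 fold change 1.70 ± 0.30, SE, adjusted p = 0.000668). Neither pair of groups overlapped. Lamb3 shares its locus with Hsd11b1 and G0s2 on the opposite strand, both highly counted in liver (522 to 1061 and 219 to 1181 CPM in the light-dark part). Without strand, reads of these genes cannot be told apart, and their part in the Lamb3 values was not tested. At ZT16-20 Hsd11b1 and G0s2 had log2 fold changes of -0.21 and -0.98 and were not called (adjusted p = 0.325 and 0.085).

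Of the other liver members called at ZT16-20, Itgb5, a partner of alpha v, had 70.0, 66.1, 68.6 and 76.1 CPM at 6% O2, against 51.1, 47.97, 32.6 and 64.9 CPM at 21% O2 (log2 fold change 0.52 ± 0.17, SE, adjusted p = 0.032). Lama3, the alpha chain that pairs with Lamb3, had 5.65, 2.12, 3.48 and 4.54 CPM at 6% O2, against 9.47, 7.87, 8.15 and 7.54 CPM at 21% O2 (log2 fold change -1.04 ± 0.32, SE, adjusted p = 0.0246). Itga10 had 1.05, 0.266, 1.16 and 2.14 CPM at 6% O2, against 3.16, 3.20, 4.24 and 5.11 CPM at 21% O2 (log2 fold change -1.76 ± 0.47, SE, adjusted p = 0.0112), on 19 counts at 6% O2 and 71 at 21% O2. In none of these did the groups overlap, and with 1 library left out the call of Itga10 held in all 8 fits. That of Itgb5 held only without D at 21% O2 or B at 6% O2 (adjusted p up to 0.102 in the others), and that of Lama3 was lost without A at 21% O2 or B or C at 6% O2 (up to 0.0766). At ZT4-8 Col27a1 had 27.0, 40.4, 36.6 and 27.9 CPM at 6% O2, against 21.9, 10.0, 18.5 and 18.7 CPM at 21% O2 (log2 fold change 0.92 ± 0.20, SE, adjusted p = 0.00368). Col5a3, a type V chain, had 41.1, 50.4, 51.0 and 57.2 CPM at 6% O2, against 32.0, 21.1, 37.3 and 39.9 CPM at 21% O2 (log2 fold change 0.61 ± 0.17, SE, adjusted p = 0.0242). Both had separate groups, and the Col5a3 call was lost without A or B at 21% O2 or C or D at 6% O2 (adjusted p up to 0.0938).

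Col27a1 was also called for time of day in liver. At 21% O2 it had 93.0, 99.1, 90.0 and 89.0 CPM at ZT16-20, against 21.9, 10.0, 18.5 and 18.7 CPM at ZT4-8, a log2 fold change of 2.42 ± 0.20 (adjusted p = 4.8e-08). Col18a1, the source of endostatin, had 808, 778, 1016 and 892 CPM at ZT16-20, against 658, 598, 656 and 711 CPM at ZT4-8 (log2 fold change 0.41 ± 0.12, SE, adjusted p = 0.0394). The Col18a1 call held with 1 library left out only where that was B at ZT16-20 (adjusted p up to 0.141 in the others). These 2 of 37 were the calls for time in air, where 3.24% higher and 2.68% lower of all genes were called. No member's response differed between the liver windows by edgeR (5 at an unadjusted p under 0.05, 1 by DESeq2, and 0.815% higher and 1.25% lower of all genes); Col18a1 came first at -0.58 ± 0.17 (adjusted p = 0.0753).

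In constant darkness 33 members were tested in KO livers and 31 in WT livers. In KO livers at CT4-8, 0 were higher and 2 lower (6.06%), where 2.83% and 2.76% of all genes were called. Col5a3 had 20.4, 27.6, 28.8 and 13.6 CPM at 6% O2, against 53.2, 42.3, 36.3 and 40.5 CPM at 21% O2. Col3a1 had 18.3, 9.49, 11.8 and 22.8 CPM at 6% O2, against 41.3, 25.5, 46.1 and 26.6 CPM at 21% O2. The groups were apart in both, with log2 fold changes of -0.92 ± 0.22 (adjusted p = 0.0144) and -1.18 ± 0.29 (adjusted p = 0.0189). Col5a3 lost its call without A at 21% O2 (adjusted p = 0.0624), and Col3a1 without A or C at 21% O2 or C at 6% O2 (up to 0.0676). In KO livers at CT16-20, 2 were higher (6.06%), against 2.39% of all genes and 2.11% lower. These were Lamb3 and Col27a1, and Col27a1 had 100.1, 82.2 and 78.7 CPM at 6% O2, against 16.5, 43.2, 28.9 and 46.9 CPM at 21% O2 (log2 fold change 1.36 ± 0.31, SE, adjusted p = 0.02). Col27a1 lost its call without C at 21% O2 or A or B at 6% O2 (adjusted p up to 0.0926), and Lamb3 without any 1 library but D at 21% O2 (up to 0.101). All 3 libraries at 6% O2 were deeper (2796286 to 3768161 counts) than the 4 at 21% O2 (1443279 to 2020619 counts). Library A at 6% O2 held 266 CPM of skeletal muscle genes, against 8.35 to 31.0 CPM in the other KO libraries at CT16-20. The part of this RNA in the calls was not tested.

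In WT livers at CT4-8, 0 of 31 members were called by edgeR or DESeq2, 3 had an unadjusted p under 0.05, and 5.7% higher and 6.07% lower of all genes were called. In WT livers at CT16-20, 2 were higher (6.45%), against 5.28% of all genes and 4.55% lower. Besides Lamb3 this was Col15a1, a basement membrane collagen related to Col18a1, at 14.6, 8.52, 12.1 and 23.3 CPM at 6% O2, against 7.61, 7.34, 5.05 and 8.85 CPM at 21% O2, which overlapped (log2 fold change 1.01 ± 0.32, SE, adjusted p = 0.0452). It lost its call without any 1 library but B at 6% O2 (adjusted p up to 0.202). The responses of KO and WT were not set against each other in a test.

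Most members were more abundant in lung than in kidney or liver. At 21% O2, 38 of 48 members were higher in lung than in kidney (79.17%) and 6 lower (12.5%), where 38.7% higher and 36.8% lower of all 10649 genes tested were called, and the median log2 difference was 1.75, against 0.04 over all genes. Lung over liver gave 41 higher and 5 lower (85.42% and 10.42%; 40.5% higher and 38.3% lower of all genes; median 2.64, against 0.05). Kidney over liver gave 28 higher and 12 lower (58.33% and 25.0%; 33.3% higher and 32.6% lower of all genes; median 0.82, against 0.01). A member could enter this fit through 1 tissue in which it was high. Over members that also passed the filter in the tables of both tissues compared, 33 of 42 were higher and 5 lower in lung than in kidney (median 1.69), 30 of 36 higher and 4 lower in lung than in liver (median 2.58), and 20 of 35 higher and 10 lower in kidney than in liver (median 0.70). Levels in these comparisons are scaled over the 3 tissues together, so they differ from the CPM of the single tables. The design text gives 3 tissues per mouse, and libraries were joined into mice by their replicate letter, which it does not spell out. Same-letter libraries of different tissues hardly deviated together (mean r 0.034, from -0.105 to 0.250 over 48 pairs, and -0.002 for lung and liver). The mean over 144 other pairs, -0.011, mirrors that value with opposite sign and is no separate check. Without the mouse block 45, 46 and 39 members were called in the 3 comparisons, against 44, 46 and 40 with it.

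The 6 members with the smallest p for lung over kidney among those higher in lung came from several roles. Itgb3, of platelets and endothelium, did not pass the filter in the kidney table (at most 9 counts in a library) and entered through lung. It had 43.4 ± 12.7 CPM in lung and 1.39 ± 0.503 CPM in kidney (SD, n = 8 each), a log2 difference of 4.90 ± 0.21, a direction that the filter favours. Lamb3 had 91.9 ± 9.59 and 5.03 ± 0.878 CPM (4.18 ± 0.15). Col6a2, of the beaded filaments, had 129.9 ± 22.6 and 11.3 ± 3.68 CPM (3.53 ± 0.15). Lama4, of vessel basement membranes, Lamc1 and Itga8, the nephronectin receptor chain, followed at 3.54 ± 0.18, 2.53 ± 0.13 and 3.35 ± 0.17, and the adjusted p of all 6 was at most 6.81e-20. Of the 9 leukocyte and platelet integrins, 8 were higher in lung and 0 lower, but Itgb3 and Itga4 among them entered through lung alone.

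The 6 that were lower in lung than in kidney were Lama1, Col27a1, Col18a1, Itgav, Col14a1 and Lamb1. Lama1 had 1.47 ± 0.804 CPM in lung and 9.70 ± 2.91 CPM in kidney (-2.68 ± 0.29), and it passed the filter in the kidney table but not in that of lung. Col27a1 had 22.1 ± 6.19 and 105 ± 18.3 CPM (-2.26 ± 0.13). The others ranged from -1.84 for Col18a1 to -0.73 for Lamb1. Liver stood apart through Col18a1, at 50.3 ± 5.23 CPM in lung, 179.6 ± 17.1 in kidney and 1353 ± 258 in liver, a log2 difference of -4.73 ± 0.11 for lung over liver and -2.90 ± 0.10 for kidney over liver. Col5a3 was also lower in kidney than in liver (-4.42 ± 0.18), at 2.48 ± 0.776 and 55.2 ± 11.04 CPM.

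The widespread type IV chains were ordered lung, kidney, liver. Col4a1 had 332 ± 30.1, 135 ± 14.4 and 34.7 ± 10.3 CPM in that order. Col4a2 had 553 ± 58.7, 196 ± 19.5 and 38.5 ± 9.60 CPM. Lama5 and Itga6 did not pass the filter in the liver table (at most 16 and 15 counts in a library) and entered through lung and kidney, so their low place in liver is a description. Lama5 had 77.0 ± 11.4, 43.0 ± 10.96 and 2.47 ± 1.18 CPM, and Itga6 82.5 ± 10.8, 59.6 ± 21.1 and 2.39 ± 0.937 CPM. Kidney over liver, these 4 differed by 1.99 ± 0.11, 2.36 ± 0.13, 4.12 ± 0.23 and 4.53 ± 0.20 on the log2 scale. Between lung and kidney the gap of Itga6 was smaller than these, at 0.54 ± 0.13 (adjusted p = 0.000221). Itgb5 did not differ beyond its spread between lung and kidney (0.16 ± 0.14, adjusted p = 0.293), nor did Col15a1 (-0.09 ± 0.19, adjusted p = 0.664).

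**Figure D5:**
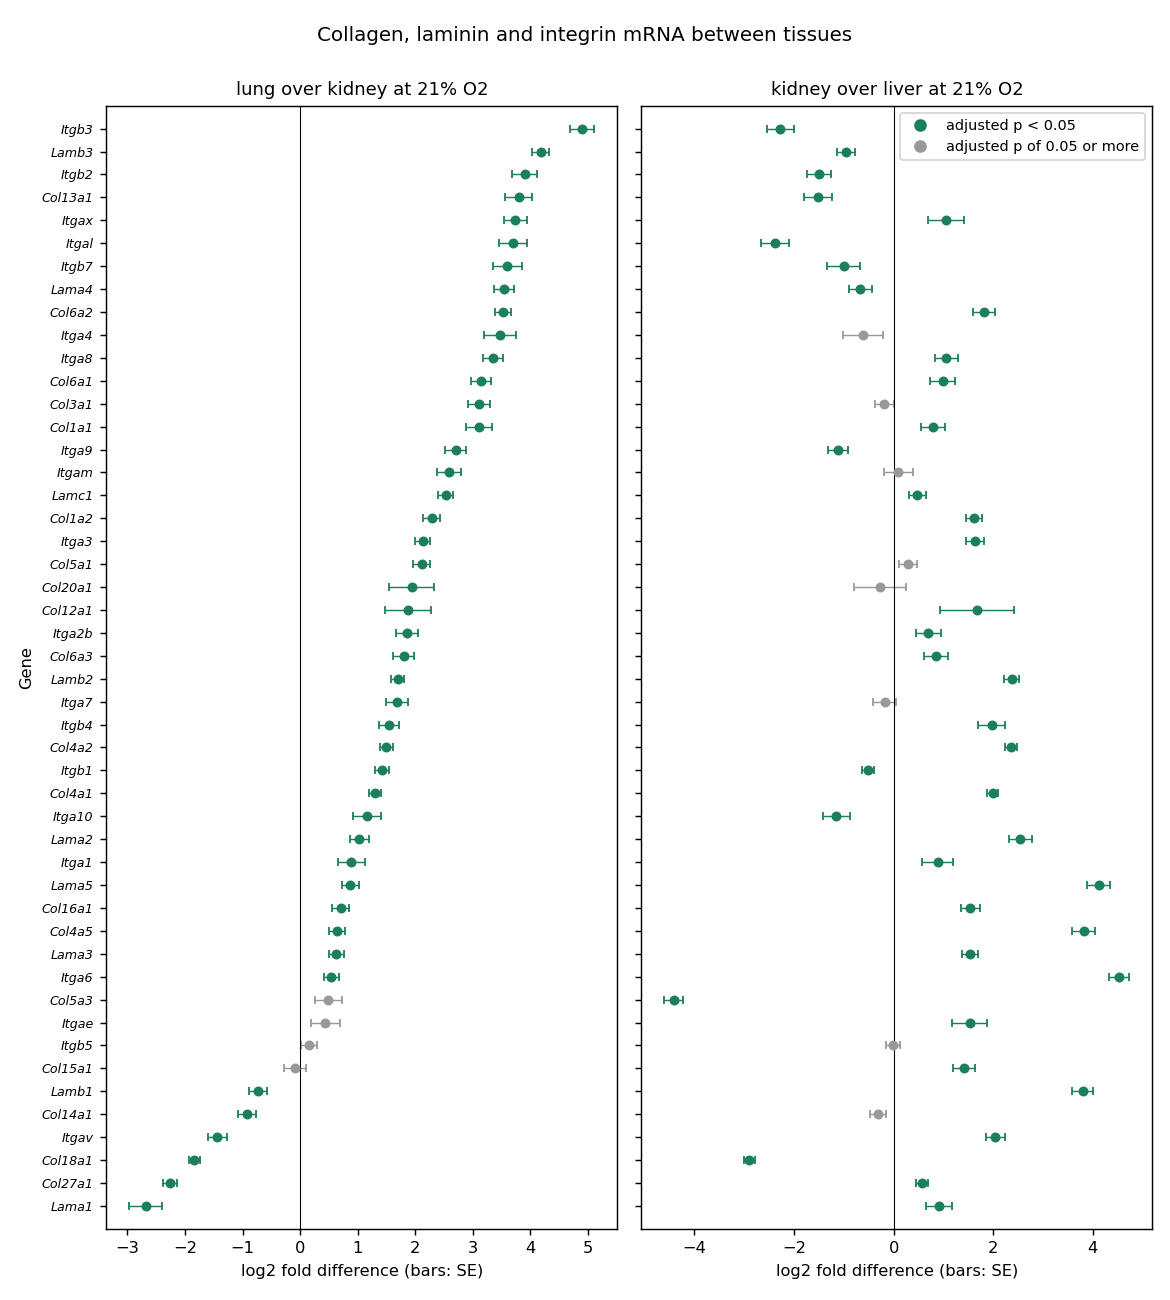
Log2 difference in level at 21% O2 for each of the 48 members in the fit over 3 tissues, lung over kidney in the left panel and kidney over liver in the right; points are estimates, bars the SE, and green marks an adjusted p under 0.05. In the left panel 38 of 48 points are called right of 0, and in the right panel 28 are, with Col5a3 (-4.42) and Col18a1 (-2.90) at the far left.

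Lists of matrix partner genes were tested in the same fits, where 11.2% higher and 11.4% lower of all lung genes were called at ZT4-8 and 10.2% and 10.9% at ZT16-20. Of 29 matrix proteases and inhibitors tested in lung, 8 were higher and 3 lower at ZT4-8 (27.6% and 10.3%) and 8 higher and 5 lower at ZT16-20 (27.6% and 17.2%). Plaur, the urokinase receptor, had log2 fold changes of 2.37 ± 0.13 and 2.15 ± 0.13 in the windows (adjusted p = 2.78e-12 and 1.42e-11). Of 31 genes of interstitial and elastic matrix, 4 were higher and 1 lower at ZT4-8 (12.9% and 3.23%) and 2 higher and 2 lower at ZT16-20 (6.45% each), shares near or below those of all genes. Thbs1, thrombospondin, stood at 2.93 ± 0.21 and 3.04 ± 0.22. Eln, elastin, was called in opposite directions, higher at ZT4-8 (0.42 ± 0.15, adjusted p = 0.0406) and lower at ZT16-20 (-0.64 ± 0.15, adjusted p = 0.00268). Of 31 genes of the adhesion complex that binds integrin tails, 7 were higher and 1 lower at ZT4-8 (22.6% and 3.23%) and 8 higher (25.8%) and 0 lower at ZT16-20. The adaptor Bcar1 led in both (1.12 ± 0.13 and 1.00 ± 0.13).

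Of 27 collagen processing genes in lung, 3 were higher and 1 lower at ZT4-8 (11.1% and 3.7%) and 3 and 2 at ZT16-20 (11.1% and 7.41%), again near or below the shares of all genes. Bmp1, which trims procollagen, stood at 1.22 ± 0.15 and 1.39 ± 0.15, and the prolyl hydroxylase chain P4ha1 at -1.41 ± 0.27 at ZT16-20 (adjusted p = 0.000566). Another such chain, P4ha2, was called higher in that window (0.50 ± 0.12, adjusted p = 0.0033). Plod2, a lysyl hydroxylase, was higher at 0.57 ± 0.12 and 0.59 ± 0.12. Other basement membrane genes gave 2 higher (13.3%) and 0 lower of 15 in each window, near the shares of all genes, with Dag1, the laminin receptor dystroglycan, at 0.46 ± 0.10 and 0.32 ± 0.10. TGF-beta and CCN regulators gave 5 higher and 1 lower of 22 at ZT4-8 (22.7% and 4.55%) and 6 and 1 at ZT16-20 (27.3% and 4.55%), led by Ctgf (1.75 ± 0.14 and 1.58 ± 0.14) and Cyr61 (2.10 ± 0.25 and 1.51 ± 0.25). Paired values in these lists are those of ZT4-8 and then ZT16-20.

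The same lists were tested in kidney, where 2.79% higher and 2.49% lower of all genes were called at ZT4-8 and 3.44% and 3.47% at ZT16-20. With 16 to 31 genes a list, lists that held 0 or 1 call in a direction are not set apart from these shares. Collagen synthesis genes gave 1 higher (Plod2, 0.65 ± 0.16) and 1 lower (the collagen chaperone Serpinh1, -0.69 ± 0.16) of 25 at ZT4-8 and none at ZT16-20 by edgeR, with 4 at an unadjusted p under 0.05. Other basement membrane genes gave 2 higher of 16 at ZT4-8, Frem1 (1.59 ± 0.38) and Nid2, nidogen 2 (0.56 ± 0.16), and 2 lower at ZT16-20, among them Tinag (-1.48 ± 0.30), a tubular basement membrane protein. Of 21 proteases and inhibitors, 1 was called higher and 0 lower in each window. Of 19 TGF-beta and CCN regulators, 1 was higher and 1 lower at ZT4-8 and 2 and 2 at ZT16-20. Cyr61 was higher (1.35 ± 0.17 and 0.89 ± 0.17), and Ctgf was lower (-1.01 ± 0.18 and -0.91 ± 0.18), where in lung both were higher. Of 21 interstitial genes, Tnc, tenascin C, was higher at ZT4-8 (1.30 ± 0.32) and none was called at ZT16-20 by edgeR, with 1 at an unadjusted p under 0.05. Adhesion complex genes gave 0 higher and 1 lower (3.23%) of 31 at ZT4-8 and 2 higher and 1 lower at ZT16-20 (6.45% and 3.23%), near the shares of all genes, with Tns2, a tensin, at 0.93 ± 0.13 and Bcar1 at 0.83 ± 0.15.

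The remaining members are accounted for as follows. In lung 3 were not listed (Col24a1, Col6a4 and Itgb8) and 9 were listed but too low to test, Lama1 and Itga2 among them. In kidney 11 were not listed and 13 were listed but not tested, among them Itga4 and Itgb3. Over the 5 tables together, 63 members were tested at least once and 10 never: Col11a2, Col24a1, Col2a1, Col6a4, Col6a5, Col9a2, Col9a3, Itga2, Itga5 and Itgb8. A member passed the filter on its counts in the libraries at hand, so the counts above speak of tested members and not of all 73.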

How the data were processed

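Total RNA of mouse lung, kidney and liver was amplified by in vitro transcription and sequenced. The authors deposited raw counts per gene, 1 table per tissue and, in constant darkness, per genotype; bcl2fastq, cutadapt, STAR, HTSeq and mm10 are named per the submitters' processing notes. Versions, annotation and strand setting were not given in the sources used here. Each table was fitted whole in edgeR 4.0.16 (R 4.3.3, limma 3.58.1; filterByExpr with a minimum count of 10 and a minimum total of 15, TMM, robust quasi-likelihood test, Benjamini-Hochberg over all genes), with its 4 oxygen and time groups. Tissues were compared in 1 fit over 48 libraries with the mouse as a block. The fits were tested on simulated data. DESeq2 1.42.0 was an alternative. Positions are from GENCODE vM21. Replicates are separate mice, 4 a group (3 in 1 group). Libraries held 1443279 to 6744476 counts, and over 117 pairs of replicate libraries none were identical.

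In lung and kidney every called member is named, up to 8 each way with all libraries; where fewer than 6 were called, up to 4 uncalled members of smallest p were added. Liver names up to 4 each way, other contrasts up to 6, and partner lists up to 3 genes, with P4ha2 added in lung. Landmark members were also named. A member and a partner gene that enter the counts are not reported here by name, and the member has no row in the plot of fold changes. Members, gene lists and marker lists were chosen with earlier results of these data known. Libraries left out together were chosen after their values were seen.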

Additional observations from a re-analysis of the deposited data

Results flagged for a closer look

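In kidney at ZT16-20, library A at 6% O2 had 15.27 CPM of Itgb6, against 21.46 to 22.13 CPM in the other 3 libraries of its group. The gap was a larger part of the group's range (0.901) than Dixon's test allows at 95%. It was 1 of 75 groups tested, and chance flags about 1 in 20 groups. The library still lay below every library at 21% O2, as did the rest of its group.

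The response of Col1a1 to 6% O2 in kidney differed between the time windows by the interaction test of edgeR, at a log2 difference of -1.251 for ZT16-20 over ZT4-8 (SE and adjusted p above).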

How the results depend on the processing

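Of 41 results for single members, 14 kept their call under every alternative run, none changed sign, and 448 of 569 alternative fits kept the call. Fitted on the 2 groups compared alone, members called were 4 in lung at ZT16-20 (9 in the fit of 4 groups), 7 in lung at ZT4-8 (4), 2 for lung time in air (0), 2 in kidney at ZT4-8 (7) and 1 for liver time in air (2). DESeq2 called 4 for lung time in air (0 by edgeR), 2 for the kidney interaction (1), 4 for kidney time in air (1), 1 for the liver interaction (0) and 1 in WT liver at CT16-20 (2). Without a filter on low counts, liver time in air gave 1. Without kidney libraries B and D at ZT4-8 and 21% O2, kidney gave 4 at ZT4-8 and 0 for time in air. Without the 3 lung libraries with most brown fat RNA, chosen after seeing the data, lung gave 5 for time in air and 7 at ZT16-20. The cause of these changes was not tested. Other scaling (RLE) left every count of members within 1.5 times, though it moved the median of all genes for lung over liver to 0.105 on the log2 scale (0.053 with TMM).

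Leaving out 1 library gave 6 to 10 calls in lung at ZT16-20, 4 to 6 at ZT4-8, 0 to 1 for its interaction and 0 to 4 for its time in air. Kidney gave 2 to 5 at ZT16-20, 4 to 8 at ZT4-8, 0 to 4 for the interaction and 0 to 6 for time in air. Light-dark liver gave 2 to 4 at ZT16-20, 1 to 3 at ZT4-8 and 1 to 2 for time in air. WT liver gave 1 to 2 at CT16-20 and 0 to 1 at CT4-8, and KO liver 0 to 2 and 0 to 3. The lung over kidney response at ZT4-8 gave 0 to 1, with 1 call without mouse C at 21% O2 or B at 6% O2.

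With the replicate letter as a replicate block, liver time in air and KO liver at CT16-20 each gave 1 call (2 without it), lung gave 10 at ZT16-20 and kidney 6 at ZT4-8. Same-letter libraries of different oxygen groups hardly deviated together (mean r -0.046 over 39 pairs). The mean over the 117 other pairs, 0.016, mirrors that value with opposite sign and is no separate check. With no replicate block for the mouse, 45 members were called for lung over kidney (44 with it), 46 for lung over liver (46) and 39 for kidney over liver (40).

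Depth limits the rare members: 10 of 73 could not be tested in any table.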
